A study of Mus musculus with 2 samples.

Results

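The genes described here are the annotated loci of microRNAs known for high levels in brain, read through chromatin accessibility in mouse cortex. They were chosen by name from the GENCODE M21 annotation of mm10: every gene of type miRNA whose symbol places it in the let-7, miR-9, miR-29, miR-30, miR-124, miR-125, miR-128, miR-132, miR-134, miR-137, miR-138, miR-212, miR-218 or miR-219 family. This gave 45 genes of 2202 annotated miRNA genes, leaving 2157 others, of which 992 have a RefSeq miRNA entry. The 45 genes lie at 33 loci when neighbours within 10 kb are joined, and 10 loci hold more than 1 of them, 22 genes in all. The rule uses symbols and no measured value, but it was set with earlier results of these libraries known.

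DNase-seq releases accessible DNA with the nuclease DNase I and sequences it. It was done on left cerebral cortex of 2 female mice of the strain B6CASTF1/J, the F1 cross of C57BL/6J with CAST/EiJ, aged 14 days and without treatment or mutation named in the labels. The libraries form 1 group (replicate 1 and replicate 2), with separate animal numbers under a shared donor record, so no comparison between conditions exists and no test was run. The labels do not say whether the animals were littermates. Reads of CAST/EiJ alleles were placed on mm10, the genome of the other parent strain.

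The libraries stood apart in how much was called. Replicate 1 held 90059 peaks and 199455 footprints, and replicate 2 held 175597 peaks and 416840 footprints. Sequencing depth is unknown. A peak is called a DNase I hypersensitive site (DHS) here, and its signal is the authors' peak height, whose unit is not stated. A footprint is a short stretch the authors called as protected from the nuclease. Overlapping peaks of the libraries were merged, and the 78165 merged regions holding a peak of each library are called shared DHSs. Of the neuron markers looked at, 8 of 9 had a promoter DHS in both libraries, and Gad2, an enzyme of GABA synthesis, had it only in replicate 2. Of the markers of glia, endothelium and other tissues, 6 of 14 had a promoter DHS in both, where the share of all protein-coding genes was 62.7%. All 6 were glial: Gfap, Aldh1l1, Mbp, Olig1, Olig2 and Cx3cr1. The glial genes Aqp4, Mog and Tmem119 had none in both. Neither did Cldn5 and Pecam1 of endothelium, nor Hbb-bs, Alb and Myh6 of other tissues. In such bulk tissue, a site open in few cells and a site weakly open in many cells cannot be told apart.

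A microRNA is cut from a hairpin within a longer transcript and loaded into an Argonaute protein. It then pairs with messenger RNAs, mainly through its seed (bases 2 to 8), and lowers their translation and stability. Hairpins may lie in the introns or exons of host transcripts, so the promoter that drives them can be far from the hairpin. In brain, miR-124 and miR-9 are known for the neuronal fate, miR-132 and miR-212 for activity-dependent transcription in neurons, and miR-219 for oligodendrocyte maturation. The let-7 microRNAs are known for differentiation and are held back by the LIN28 proteins. Members of let-7, miR-29, miR-30 and miR-125 are also abundant outside the brain, and expression was not measured here.

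RefSeq (GRCm38.p6) mature sequences matched 40 of the 45 genes, under 64 names. Mir124a-1, Mir124a-2, Mir124a-3, Mir30b and Mir30d had no entry. The mature sequences shown are those of families with a DHS close to the hairpin in both libraries, with 2 further let-7 members to show what their family shares. The capitals mark the seed.
miR-132-3p: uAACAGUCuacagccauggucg
miR-212-3p: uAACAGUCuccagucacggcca
miR-9-5p: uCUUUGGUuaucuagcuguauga
miR-9-3p: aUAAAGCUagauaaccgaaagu
miR-219a-5p: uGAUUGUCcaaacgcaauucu
miR-219c-5p: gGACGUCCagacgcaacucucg
miR-125b-5p: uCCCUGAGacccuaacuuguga
miR-125a-5p: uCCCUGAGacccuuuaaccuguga
miR-128-3p: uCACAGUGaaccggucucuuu
miR-29c-3p: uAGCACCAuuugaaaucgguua
miR-29b-3p: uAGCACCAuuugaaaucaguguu
let-7i-5p: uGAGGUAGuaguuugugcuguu
let-7d-5p: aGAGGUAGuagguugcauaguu
let-7f-5p: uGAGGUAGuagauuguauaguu
The matched genes carried 45 different seeds, and 15 seeds occurred in more than 1 gene. The seed GAGGUAG was shared by 8 mature let-7 sequences of 10 genes. The seed AACAGUC was shared by miR-132-3p and miR-212-3p, CCCUGAG by the miR-125 genes and AGCACCA by the 4 miR-29 genes. Genes with a shared seed could differ in accessibility, as the miR-9 and let-7 genes below did, or match, as the miR-218 and miR-138 pairs did by the counts below.

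A DHS lay within 1 kb of the hairpin gene in both libraries at 13 of the 45 genes (28.9%), against 301 of 2157 other miRNA genes (14%). Among the other genes with a RefSeq entry the count was 172 of 992 (17.3%). Replicate 1 had such a DHS at 14 of the 45 genes (31.1%), against 14.2% of the other miRNA genes and 17.7% of those with a RefSeq entry. Replicate 2 had it at 16 (35.6%), against 20.8% and 25.7%. Genes that share a locus share their DHSs, and by locus, which was not counted for the other miRNA genes, the count was 10 of 33. Away from protein-coding start sites, at over 1 kb from any, it was 11 of 40 genes (27.5%), against 140 of 1808 other miRNA genes (7.74%) and 84 of 782 with a RefSeq entry (10.7%). These shares describe the annotation and these libraries, and their differences carry no test.

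Within 20 kb, 41 of the 45 genes (91.1%) had a DHS in both libraries, against 1459 of the other 2157 (67.6%) and 784 of the 992 with a RefSeq entry (79.0%). In replicate 2 alone it was 43 of the 45 (95.6%), against 83.0% of the other miRNA genes and 91.8% of those with a RefSeq entry. In replicate 1 alone it was 41 (91.1%), against 68.3% and 79.3%. Footprints within 1 kb were called in both libraries at 13 of the 45 genes (28.9%), against 12.8% of the other miRNA genes and 16.0% of those with a RefSeq entry. The 13 genes with footprints were the 13 with a DHS. The hairpin itself lay under a peak in both libraries at 3 genes, Mir132, Mir212 and Mir128-2 (6.67%). The share was 4.27% of the other miRNA genes and 5.75% of those with a RefSeq entry. The median distance to the nearest peak was 3331 bp in replicate 1 and 1997 bp in replicate 2 for the 45 genes. For the other miRNA genes it was 8755 bp in replicate 1 and 4513 bp in replicate 2. For those with a RefSeq entry it was 5630 bp in replicate 1 and 3017.5 bp in replicate 2.

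**Figure D1:**
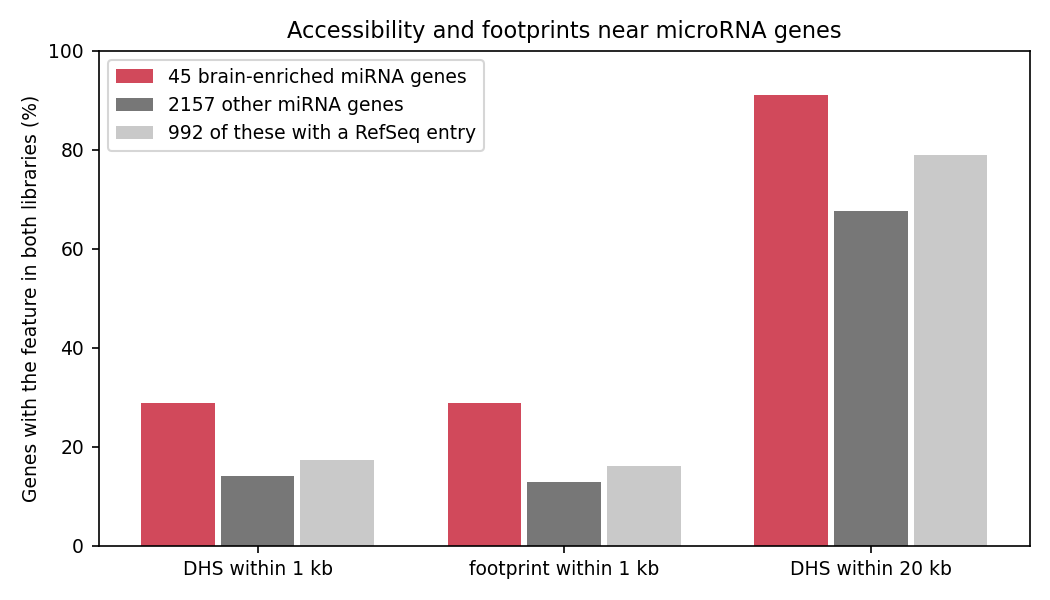
Share of genes (%, y axis) with a DHS within 1 kb, a footprint within 1 kb or a DHS within 20 kb in both libraries (x axis), for the 45 brain-enriched miRNA genes, the 2157 other miRNA genes and the 992 of these with a RefSeq entry. The bars of the 45 genes are the tallest in each set, at 28.9%, 28.9% and 91.1%.

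Mir212 and Mir132 had the highest signal of the 13. Mir212 (chr11:75173388-75173478) and Mir132 (chr11:75173682-75173747) lie on the plus strand in an intron of the non-coding transcript 1700016P03Rik. The highest DHS within 1 kb of either, at chr11:75173561-75173860, had a signal of 4.60 in replicate 1 and 4.16 in replicate 2 (4.38 ± 0.31, SD, n = 2). It contains the Mir132 hairpin and stood at percentile 96.4 of all shared DHSs by mean signal. A neighbouring DHS at chr11:75173181-75173460 had 2.30 in replicate 1 and 2.19 in replicate 2 and covers much of Mir212. A further DHS, 49 bp from the start of 1700016P03Rik by its midpoint, had 1.26 in replicate 1 and 1.45 in replicate 2. Footprints overlapped the Mir132 hairpin (2 in each library) and the Mir212 hairpin (1 in replicate 1 and 2 in replicate 2).

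**Figure D2:**
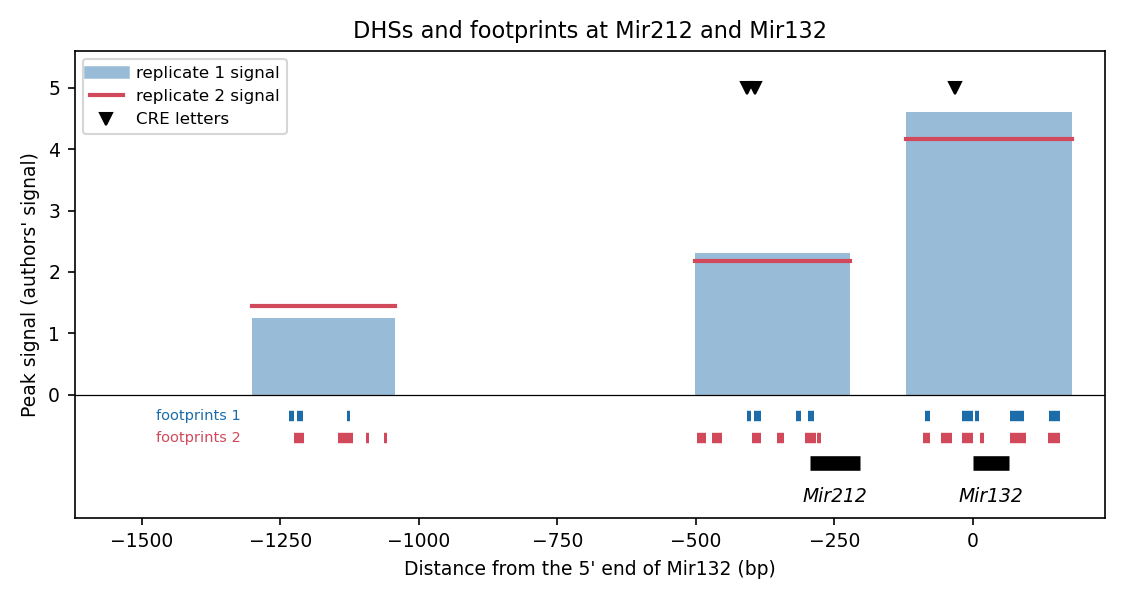
Map of the Mir212 and Mir132 locus, with distance from the 5′ end of Mir132 in bp on the x axis and the authors' peak signal on the y axis. Blue blocks give replicate 1, red lines replicate 2, short bars below 0 the footprints of each library, black bars the hairpins and triangles the letters TGACGTCA. The block over Mir132 is the highest, at 4.60 in replicate 1 and 4.16 in replicate 2.

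The miR-124 genes followed in signal and differed among themselves. miR-124 represses many non-neuronal transcripts. Mir124a-3 (chr2:180894040-180894107, plus strand) had a highest signal of 3.82 in replicate 1 and 4.15 in replicate 2 (3.98 ± 0.23). These values belong to different DHSs. The upstream DHS at chr2:180892901-180893180 had 3.82 in replicate 1 and 2.76 in replicate 2, and the downstream DHS at chr2:180894821-180895120 had 3.54 in replicate 1 and 4.15 in replicate 2. The DHS next to the hairpin was weaker, at 0.717 in replicate 1 and 0.841 in replicate 2. Mir124a-1 had a peak within 1 kb only in replicate 2 (1.05) and Mir124a-2 only in replicate 1 (0.516).

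miR-9 is made from 3 genes with the same mature sequences, and is known for the timing of neurogenesis. Mir9-3 (chr7:79505264-79505353, plus strand) had 3.41 in replicate 1 and 2.53 in replicate 2 (2.97 ± 0.63), from a DHS 263 bp from the hairpin. Mir9-2 (chr13:83738814-83738885, plus strand) had 1.45 in replicate 1 and 1.66 in replicate 2 (1.55 ± 0.15). Mir9-1 had no peak within 1 kb, and its nearest lay 1029 bp away in replicate 1 and 1069 bp away in replicate 2. The nearest peak was thus just outside the window at Mir9-1.

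All 4 miR-219 genes had a DHS within 1 kb in both libraries, at 2 loci where hairpins overlap on opposite strands. Mir219a-1 (chr17:34024983-34025092, minus strand) and Mir219c (chr17:34025012-34025071, plus strand) shared a signal of 2.20 in replicate 1 and 1.48 in replicate 2 (1.84 ± 0.51). That DHS lay 21 bp from a start of Ring1, a Polycomb ubiquitin ligase gene, so the accessible site belongs by position to a coding promoter. Mir219a-2 (chr2:29845631-29845727, minus strand) and Mir219b (chr2:29845647-29845711, plus strand) shared 0.632 in replicate 1 and 0.697 in replicate 2 (0.664 ± 0.046). Their DHS lay 4777 bp from the nearest annotated start, with starts of miRNA genes left out. DNase-seq has no strand, so genes of such a pair cannot be told apart.

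Of the remaining families, Mir125b-1 (chr9:41581926-41582002, plus strand) had 2.06 in replicate 1 and 1.79 in replicate 2 (1.92 ± 0.19). miR-125b is known for promoting neuronal differentiation. Mirlet7i (chr10:122985640-122985724, minus strand) had 1.60 in replicate 1 and 1.37 in replicate 2 (1.48 ± 0.16). It was the only let-7 gene of 11 with a peak within 1 kb, in either library. Mir128-2 (chr9:112118636-112118711, minus strand), whose product is known for restraining neuronal excitability, had 1.09 in replicate 1 and 0.906 in replicate 2 (1.00 ± 0.13). Mir29c (chr1:195037547-195037634, plus strand) had 0.670 in replicate 1 and 0.851 in replicate 2 (0.761 ± 0.128). Signal was higher in replicate 1 at 8 of the 13 genes and in replicate 2 at the other 5, with genes that share a DHS each counted.

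A peak within 1 kb was called in 1 library only at 4 genes. Besides Mir124a-1 and Mir124a-2 these were Mir137, with 0.503 in replicate 2, and Mir30b, with 0.353 in replicate 2. miR-137 is known for neuronal maturation. The other 28 genes had no peak within 1 kb in either library, nor any genome segment passing the authors' false discovery rate there. They comprised 10 let-7, 6 miR-30, 3 miR-29, 2 miR-125, 2 miR-138 and 2 miR-218 genes and the single genes Mir128-1, Mir134 and Mir9-1.

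**Figure D3:**
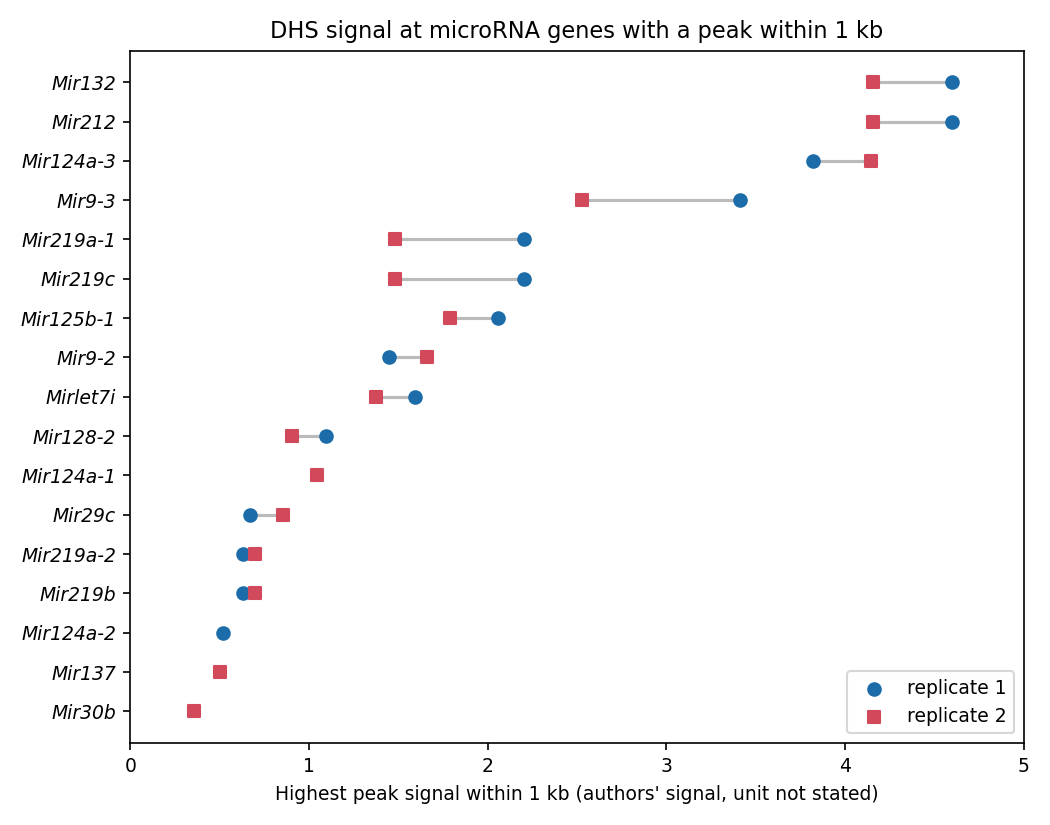
Highest peak signal within 1 kb (x axis, authors' signal, unit not stated) at the genes with a peak there (y axis), as circles for replicate 1 and squares for replicate 2, with a line joining them. Mir132, Mir212 and Mir124a-3 lie above 3.8 in each library, and Mir124a-1, Mir124a-2, Mir137 and Mir30b have a point of 1 library only.

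The 13 genes were served by 18 shared DHSs. Of these, 13 were above the median of all shared DHSs by mean signal, and their median percentile was 78.2. By midpoint, and with starts of miRNA genes left out, 12 of the 18 lay within 1 kb of an annotated start, and 2 within 1 kb of a coding start. No share of all shared DHSs near a start stands beside these counts. At the 18 DHSs, the log2 ratio of replicate 2 over replicate 1 had a median of -0.17 and ran between -0.61 and 0.34. All shared DHSs had a median of -0.05 with an SD of 0.52. A footprint was called in both libraries in 16 of the 18, against 81.0% of all shared DHSs. The median signal within 1 kb was 2.06 in replicate 1 and 1.48 in replicate 2 over the 13 genes, with genes that share a DHS each counted. Over the 301 other miRNA genes called it was 1.40 in replicate 1 and 1.29 in replicate 2. Over the 172 of these with a RefSeq entry it was 1.38 in replicate 1 and 1.24 in replicate 2.

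The surroundings differed widely between loci. Peaks within 20 kb numbered 0 to 15 per gene in replicate 1 and 0 to 23 in replicate 2. The median gene had 4 in replicate 1 and 6 in replicate 2. The median of the other miRNA genes was 2 peaks in replicate 1 and 3 in replicate 2, and of those with a RefSeq entry 2 in replicate 1 and 4 in replicate 2. Mir9-2 had 5 peaks in replicate 1 and 23 in replicate 2, Mir124a-3 had 15 in replicate 1 and 19 in replicate 2. Mir132 had 11 in replicate 1 and 17 in replicate 2. Replicate 2 had more peaks at 32 of the 45 genes, and numbers were equal at 12. Of the 2157 other miRNA genes, replicate 2 had more peaks at 1434, and numbers were equal at 623. Among the 45, Mir124a-2 alone had more in replicate 1, with 11 against 5 in replicate 2. More peaks in replicate 1 occurred at 4.64% of the other miRNA genes.

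No peak lay within 20 kb of Mir128-1 or Mirlet7f-2 in either library. The nearest peak to Mir128-1 was 41630 bp away in replicate 1 and 33633 bp away in replicate 2. For Mirlet7f-2 the distances were 34748 bp in replicate 1 and 21362 bp in replicate 2. Mir30b and Mir30d had a peak within 20 kb only in replicate 2. Among the 41 genes with a peak within 20 kb in both libraries, the highest signal there ran between 0.516 and 7.88 in replicate 1, with a median of 3.03. In replicate 2 it ran between 0.801 and 7.99, with a median of 2.36.

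**Figure D4:**
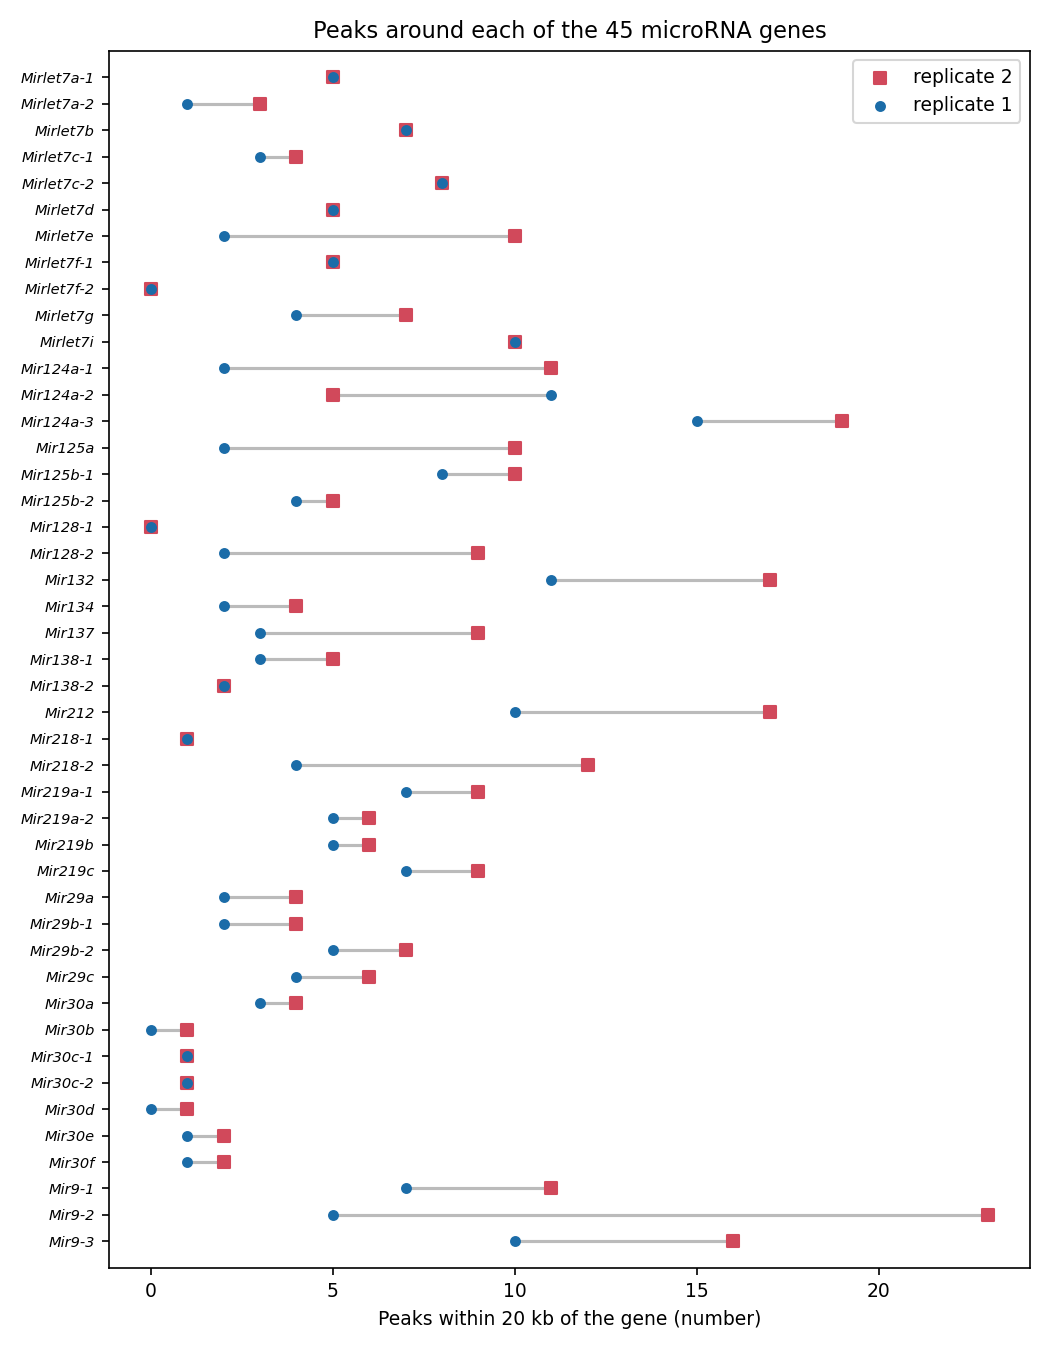
Number of peaks within 20 kb (x axis) of each of the 45 genes (y axis, ordered by family), with circles for replicate 1 and squares for replicate 2. Mir9-2 shows the widest gap, with 5 peaks in replicate 1 and 23 in replicate 2, and Mir124a-2 is the gene with more peaks in replicate 1.

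The starts of the host transcripts were accessible at most loci. A host was any gene of another type on the same strand whose span contains the hairpin, and its start counted as accessible when a peak lay within 1 kb of any annotated start in both libraries, including starts downstream of the hairpin. Of the 45 genes, 35 had a host, and 32 of these 35 (91.4%) had an accessible host start, against 946 of 1137 other miRNA genes with a host (83.2%). The share was 85.7% for those with a RefSeq entry. With only starts upstream of the hairpin counted, it was 31 of 35 (88.6%), against 80.2% of the other miRNA genes with a host and 81.7% of those with a RefSeq entry. The gene lost was Mir134. Of all protein-coding genes, 62.7% had a promoter DHS in both libraries. The 35 genes used 28 host genes, 25 of them accessible. A gene with many annotated starts, such as 3110039I08Rik with 40, has more chances to be counted. The hairpin lay in a host exon at 19 genes and only in introns at 16.

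Of the 32 genes without a DHS within 1 kb in both libraries, 24 had an accessible host start, and 23 had one upstream of the hairpin. No share of the other miRNA genes without such a DHS stands beside the 24 and the 23. R3hdm1, the host of Mir128-1, had 8.50 in replicate 1 and 8.67 in replicate 2 at its start, 99.1 kb upstream of the hairpin. The lincRNA 6720427I07Rik, which holds Mirlet7a-1, Mirlet7f-1 and Mirlet7d, had 7.88 in replicate 1 and 7.99 in replicate 2. Gm20732, the host of Mir30d, had 6.13 in replicate 1 and 6.40 in replicate 2. Nfyc, a subunit of the CCAAT-binding factor NF-Y and host of Mir30c-1 and Mir30e, had 5.20 in replicate 1 and 4.74 in replicate 2. Huwe1, a ubiquitin ligase and host of Mirlet7f-2, had 3.75 in replicate 1 and 4.11 in replicate 2. Both values depend on the start taken: at the most 5′ start, Nfyc had 0.485 in replicate 1 and 0.448 in replicate 2, and Huwe1 had 0.909 in replicate 1 and 1.01 in replicate 2. Mir128-1 and Mirlet7f-2, the genes with the emptiest surroundings, both had an accessible host start upstream of the hairpin.

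Hosts of the remaining let-7, miR-125 and miR-29 genes ranged widely in signal. Spaca6, the host of Mirlet7e and Mir125a, had 4.01 in replicate 1 and 3.47 in replicate 2, but at a start downstream of both hairpins. Upstream of them, at its most 5′ start, Spaca6 had 1.73 in replicate 1 and 1.58 in replicate 2. A330023F24Rik, the host of Mir29b-2 and Mir29c, had 3.31 in each library, and at its most 5′ start 2.87 in replicate 1 and 1.51 in replicate 2. Mir99ahg, which holds Mirlet7c-1 and Mir125b-2, had 2.42 in replicate 1 and 3.34 in replicate 2. Gm49317 and 3110039I08Rik, which both contain Mirlet7a-2 and Mir125b-1, had the same peak, at 2.67 in replicate 1 and 2.65 in replicate 2. At its most 5′ start, 3110039I08Rik had no peak in replicate 1 and 0.269 in replicate 2. Gm28119, a short transcript around Mir125b-1, had the peak given above for that gene. Wdr82, the host of Mirlet7g, had 2.47 in replicate 1 and 1.82 in replicate 2. D630033A02Rik at Mirlet7i had the peak given above for that gene, and Lncppara, which holds Mirlet7b and Mirlet7c-2, had 1.39 in replicate 1 and 1.50 in replicate 2.

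Hosts of the miR-9, miR-124, miR-132, miR-134, miR-137, miR-212 and miR-218 genes and of Mir128-2 had signals below 3 at their starts. Several hosts given above, among them Wdr82, D630033A02Rik and Lncppara, were also below 3, so this level does not separate the families. 1700016P03Rik, the host of Mir212 and Mir132, had 2.30 in replicate 1 and 2.19 in replicate 2, from the DHS over Mir212 given above. The DHS nearest to its start had 1.26 in replicate 1 and 1.45 in replicate 2. Gm3764, the host of Mir9-1, had 2.08 in replicate 1 and 2.09 in replicate 2 at a start downstream of the hairpin. The highest peak at an upstream start of Gm3764 had 1.83 in replicate 1, and that region had 1.21 in replicate 2. At 5 hosts the highest start peaks of the libraries were different DHSs, and for these the values of a single DHS follow, with replicate 1 before replicate 2. C130071C03Rik at Mir9-2 had 1.64 and 1.50, Mir9-3hg had 1.42 and 0.951, and Mir124-2hg at Mir124a-2 had 1.53 and 1.24. Mir124a-1hg had 1.30 and 1.60, and Arpp21 at Mir128-2 had 1.37 and 1.41. Mir124-2hg had 0.917 and 1.05 at its most 5′ start. Slit3, an axon guidance gene and host of Mir218-2, had 1.42 in replicate 1 and 1.75 in replicate 2, and 0.609 in replicate 1 and 0.468 in replicate 2 at its most 5′ start. Slit2, which holds Mir218-1, had 0.732 in replicate 1 and 0.488 in replicate 2, and Gm26871 at Mir137 had 0.894 in replicate 1 and 0.612 in replicate 2. Mirg, the host of Mir134, had 0.871 in replicate 1 and 1.06 in replicate 2 at a start over 14 kb downstream of the hairpin, and no peak at a start upstream of it in either library. Gm27028 (Mir30c-2), C78859 (Mir138-2) and Gm47135 (Mir138-1) had no peak at a start in both libraries.

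Counting either a DHS within 1 kb or an accessible host start, 37 of the 45 genes were covered, and 36 with host starts upstream of the hairpin only, since Mir134 drops out. The other 8 were Mir30a, Mir30b, Mir30c-2, Mir30f, Mir29a, Mir29b-1, Mir138-1 and Mir138-2. Of these, 5 have no annotated host on their strand. The miRNA genes outside the 45 were not counted in this way, so the 37 and the 36 have no background share beside them.

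The sequence under the DHSs was read from mm10. Shown are both strong DHSs of Mir212 and Mir132, the DHS of Mir9-3 and the DHS shared by Mir219a-1 and Mir219c, because they hold the hairpins themselves, motif letters named below or the coding promoter described above. The plus strand is given, and capitals mark bases inside a footprint in both libraries.
Mir212 DHS, chr11:75173181-75173460: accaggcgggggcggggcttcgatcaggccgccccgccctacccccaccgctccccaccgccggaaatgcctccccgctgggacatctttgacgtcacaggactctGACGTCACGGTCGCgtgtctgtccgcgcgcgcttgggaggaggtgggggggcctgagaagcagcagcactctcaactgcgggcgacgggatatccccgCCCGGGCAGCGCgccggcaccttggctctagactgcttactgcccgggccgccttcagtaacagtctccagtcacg
Mir132 DHS, chr11:75173561-75173860: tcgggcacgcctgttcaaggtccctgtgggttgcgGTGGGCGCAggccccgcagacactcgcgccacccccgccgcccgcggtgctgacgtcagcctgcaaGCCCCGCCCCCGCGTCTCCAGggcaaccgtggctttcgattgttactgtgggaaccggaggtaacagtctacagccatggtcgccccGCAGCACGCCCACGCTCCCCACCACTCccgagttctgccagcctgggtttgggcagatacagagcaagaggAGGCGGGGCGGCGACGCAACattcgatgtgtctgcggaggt
Mir9-3 DHS, chr7:79504781-79505000: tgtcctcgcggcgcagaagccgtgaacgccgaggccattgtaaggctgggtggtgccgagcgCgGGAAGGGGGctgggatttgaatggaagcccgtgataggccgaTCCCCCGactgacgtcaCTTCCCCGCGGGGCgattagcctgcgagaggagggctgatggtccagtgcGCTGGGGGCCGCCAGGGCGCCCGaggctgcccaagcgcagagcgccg
Mir219a-1 DHS, chr17:34024561-34024840: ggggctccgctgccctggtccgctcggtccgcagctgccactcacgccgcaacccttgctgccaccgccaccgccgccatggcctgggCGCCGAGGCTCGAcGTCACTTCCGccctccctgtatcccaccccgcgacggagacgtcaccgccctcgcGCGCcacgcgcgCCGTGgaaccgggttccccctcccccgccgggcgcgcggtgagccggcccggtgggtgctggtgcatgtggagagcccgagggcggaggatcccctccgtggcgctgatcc
In the DHS over Mir132, 77 of 300 bases lay in a footprint in both libraries, with 86 in replicate 1 and 117 in replicate 2. In the DHS at Mir212 it was 26 of 280, with 43 in replicate 1 and 96 in replicate 2. At Mir9-3 it was 54 of 220, with 84 in replicate 1 and 65 in replicate 2. At Mir219a-1 it was 32 of 280, with 54 in replicate 1 and 48 in replicate 2. The last bases of the Mir212 DHS are part of miR-212-3p, and the middle of the Mir132 DHS holds miR-132-3p, both printed above with U for T.

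The 18 DHSs within 1 kb were rich in CpG. In windows of 300 bp around their midpoints, the median GC content was 67.7%, against 51.0% for all shared DHSs. The ratio of observed to expected CpG had a median of 0.856, against 0.328 for all shared DHSs. It passed 0.6, called CpG-rich here, in 12 of the 18 (66.7%) and in 23.6% of all shared DHSs. For the 125 shared DHSs within 20 kb of the 45 genes the medians were 55.3% GC and 0.400.

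In the same windows, 13 motifs were searched on both strands. The letters TGACGTCA, the cAMP response element (CRE) bound by CREB family factors, were in 4 of the 18 DHSs (22.2%) at 3 loci: 2 DHSs of Mir212 and Mir132, 1 of Mir124a-3 and 1 of Mir9-3. They were in 10 of the 125 DHSs within 20 kb (8.0%), against 3.01% of the CpG-rich shared DHSs and 1.15% of all shared DHSs. The CRE core TGACG, which the full CRE contains and which was added after the first motif counts were seen, was in 9 of the 18, against 33.2% of the CpG-rich and 17.9% of all shared DHSs. The letters GGGCGG, read by SP and KLF factors, were in 11 of the 18 (61.1%), against 62.5% of CpG-rich and 23.2% of all shared DHSs. The letters GCGTGGGCG, read by EGR factors and able to overlap GGGCGG by their last bases, were in 1 of the 18, the DHS over Mir132 (5.56%), and inside a footprint in both libraries. They were in 1.54% of the CpG-rich and 0.516% of all shared DHSs.

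**Figure D5:**
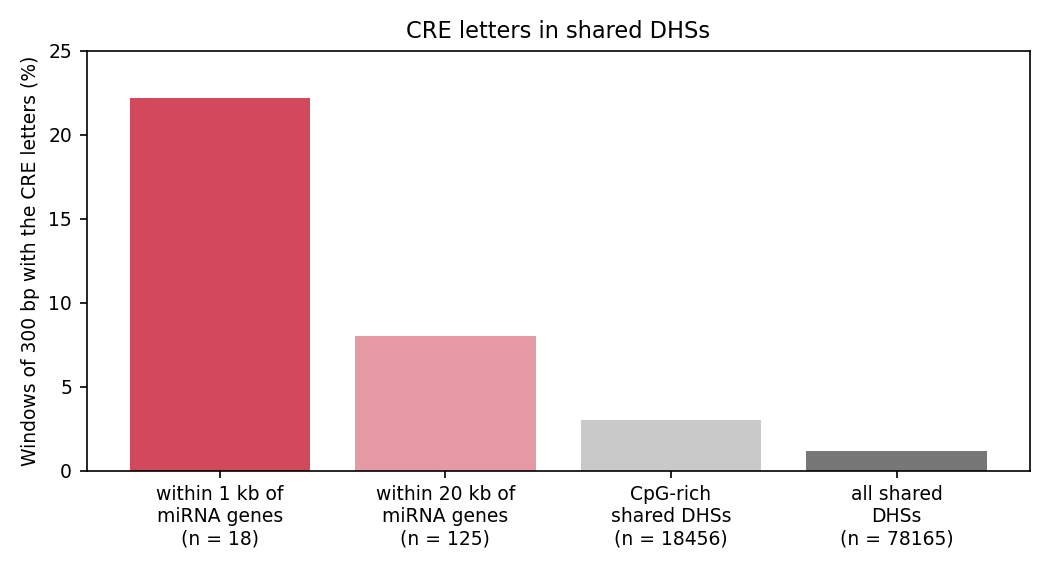
Share of 300 bp windows (%, y axis) that hold the letters TGACGTCA, for shared DHSs within 1 kb and within 20 kb of the 45 genes, CpG-rich shared DHSs and all shared DHSs (x axis, with the number of DHSs). The share is 22.2%, 8.0%, 3.01% and 1.15%, the first from 4 of 18 windows.

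For the other motifs the counts in the 18 windows were small. The E-box CAGCTG was in 33.3% of the 18, against 16.1% of the CpG-rich and 23.5% of all shared DHSs. The E-box CAGATG of NEUROD factors was in 16.7%, against 11.3% of the CpG-rich and 26.2% of all shared DHSs. The AP-1 letters TGAGTCA were in none of the 18, in 2.83% of the CpG-rich and in 7.5% of all shared DHSs. RE1, the site of the REST repressor, was searched as CAGCACC and GGACAG with a 2-base gap. It was in none of the 18 or the 125, in 0.0975% of the CpG-rich and in 0.0588% of all shared DHSs. Its part CAGCACC alone was in 11.1% of the 18, 8.75% of the CpG-rich and 8.19% of all shared DHSs. GGACAG alone was in 16.7%, 20.6% and 21.3%, in the same order. The NFI palindrome of TTGGC and GCCAA, the RFX palindrome of GTTGCC and GGCAAC and a CTCF core were in none of the 18. They were in 0.0379%, 0.146% and 0.363% of the CpG-rich shared DHSs, and in 0.141%, 0.211% and 1.56% of all shared DHSs. No match says only that these letters are absent from the window.

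The full CRE occurred 11 times in the 10 windows within 20 kb. All 8 bases lay inside a footprint of both libraries at 4 of the 11, of replicate 1 only at 1, of replicate 2 only at 3 and of neither library at 3. The 4 were at Mir124a-3, the host start of Mir9-3, 6720427I07Rik above Mirlet7a-1, and Wdr82 above Mirlet7g. At Mir212 and Mir132, 1 of the 3 CREs lay in a footprint of replicate 2 and none of the 3 lay wholly in a footprint of replicate 1. Of these occurrences, 7 are shown with 10 bases on either side from the plus strand, and the capitals mark the CRE.
Mir124a-3, chr2:180893070-180893097: cggtgtcgggTGACGTCAccgcgcgccc
Mir9-3, near, chr7:79504886-79504913: atcccccgacTGACGTCActtccccgcg
Mir9-3, at the host start, chr7:79499965-79499992: ggagccgcgcTGACGTCActgcgggccg
Mir9-2, chr13:83729762-83729789: gacagggagcTGACGTCAatggacgtga
Mir9-1, chr3:88214381-88214408: aacgagacagTGACGTCAgaccaggtat
Mirlet7a-1 cluster, chr13:48545887-48545914: acggcggaagTGACGTCAtagaggcccg
Mirlet7g, chr9:106170821-106170848: gccgccccgcTGACGTCAtcgtcccgcc
The stretches share the CRE and differ around it, so the occurrences are not copies of 1 repeated sequence. They lie in DHSs with signals between 1.42 and 4.45 in replicate 1 and between 0.951 and 3.92 in replicate 2.

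MicroRNAs known for other tissues, or for endothelium and glia, were counted the same way, 54 genes in all. Endothelium and glia are also part of cortex, so the 54 are not a set from outside the brain. A DHS within 1 kb in both libraries was present at 4 of them (7.41%), against 14.0% of all miRNA genes outside the 45, and a DHS within 20 kb at 46 (85.2%), against 67.6%. Counted by gene, the lists came close within 20 kb to the 91.1% of the 45 genes. The counts were 11 of 11 for pluripotent cells, 10 of 10 for endothelium and glia, 7 of 10 for muscle, 11 of 14 for epithelium and liver and 7 of 9 for blood cells. Many listed genes are neighbours that share DHSs, and the lists were not counted by locus. The genes of pluripotent cells lie in a cluster on chr7 and another on chr3. A DHS within 1 kb in both libraries was present at 0 of 10 genes of muscle and 0 of 11 of pluripotent cells. It was present at 2 of 9 genes of blood cells, which are the neighbours Mir181a-1 and Mir181b-1, with a shared signal of 0.563 in replicate 1 and 0.727 in replicate 2. It was present at 1 of 14 genes of epithelium and liver, Mir802, with 0.732 in replicate 1 and 1.09 in replicate 2. It was present at 1 of 10 genes of endothelium and glia, Mir145a, a microRNA of vascular smooth muscle, with 2.50 in replicate 1 and 2.01 in replicate 2. miR-181 is itself also made in brain. These lists are small and were set by hand.

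The machinery that makes and uses microRNAs had accessible promoters at 27 of 28 genes listed, where 62.7% is the share of all protein-coding genes. The highest were Tarbp2, a partner of Dicer, with 9.21 in replicate 1 and 10.3 in replicate 2, and Khsrp, which binds let-7 precursors, with 8.28 in replicate 1 and 10.1 in replicate 2. Tnrc6c, a silencing partner of the Argonautes, had 7.75 in replicate 1 and 8.54 in replicate 2. Ptbp1, a splicing repressor that miR-124 targets, had 6.87 in replicate 1 and 7.69 in replicate 2. Lin28a, whose product blocks let-7 maturation, had a promoter peak only in replicate 1, at 0.270.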

How the data were processed

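DNase-seq was done on 2 libraries of mouse left cerebral cortex. Per the labels, reads were placed on mm10. Peaks come from each library alone, per the deposited notes. The software that placed reads and called peaks is not given in the sources used here. Each deposited peak signal has no stated unit, so depth is unknown and levels between libraries carry an unknown factor. The authors also deposited segments of the genome whose q-value was at most 0.05, and footprints with a constant 0.01 in their p-value column. The larger peak list was used.

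The signal of a gene was the highest peak overlapping, by at least 1 bp, the gene extended by 1 kb. Background counts used all other miRNA genes in GENCODE M21. Members and lists were chosen with earlier results of these data known. Named were genes with a DHS within 1 kb in both libraries or in 1 only, genes with none within 20 kb, all hosts, listed miRNAs of other tissues with a DHS within 1 kb in both libraries, and of the machinery list the 4 highest promoters and those without a DHS in both libraries. Further genes were named after their values were seen: the genes with neither a DHS nor a host start, Mir9-1, Mir30d and the cell type markers. Values after ± are the SD over n = 2, which may be partly technical. Alternatives were the stricter list, equal peak numbers, midpoints, other windows and anchors, loci, footprint rules, the most 5′ host start, other background genes and each library alone. Interval functions were right in 100% of 500 simulated cases each. Python 3.11.15, NumPy 2.4.6, pandas 2.3.3, bedtools 2.31.1 and Matplotlib 3.10.9 were used.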

Additional observations from a re-analysis of the deposited data

How the results depend on the processing

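The 13 genes with a DHS within 1 kb in both libraries became 9 in the stricter peak list, 12 by peak midpoint, 13 with equal numbers of peaks or from the 5′ end, 17 within 2 kb and 8 within 500 bp. The 8 genes Mirlet7i, Mir212, Mir132, Mir219a-1, Mir219c, Mir124a-3, Mir9-3 and Mir128-2 were called under each of these settings. Within 500 bp, Mir124a-3 had a mean signal of 0.779, since its strong DHSs lie further out. The count of footprints within 1 kb was 13 inside DHSs and 8 when footprints of both libraries had to overlap by 50% of each. The 41 genes with a DHS within 20 kb were 38 in the stricter list, 32 within 10 kb and 45 within 50 kb. The 32 accessible host starts were 27 in the stricter list, 31 at the most 5′ start and 31 with upstream starts only, the last chosen after seeing the data. With 1 library left out, the counts ran from 14 to 16 within 1 kb, from 41 to 43 within 20 kb and from 14 to 16 for footprints, and stayed at 32 for hosts. Of these alternative counts, only DHSs in each library alone and upstream host starts have a share of the other miRNA genes given above. The rest show how the calls moved, and not whether the difference from the other miRNA genes held. The share of other miRNA genes with a DHS within 1 kb was 14.0% of all, 17.3% with a RefSeq entry and 7.74% away from coding starts, the last 2 chosen after seeing the data. The causes of these shifts were not tested. No paired analysis was possible because there is 1 group and no test. Depth is unknown, so a site called in 1 library only cannot be told from a difference in calling.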
